A study of Mus musculus with 20 samples.

Results

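The comparison described here set NIH3T3 cells, a line of mouse embryonic fibroblasts, that had been given 18 mM NaOH in their medium for 2 h against the same cells at 0 h. It was made by the labels alone, with 4 libraries of cells at 5% CO2 with NaOH for 2 h (NaOH 2 h) against 4 libraries of untreated cells at 5% CO2 (0 h), which are 8 of the 20 libraries of the series. Of the 11075 genes in the table, 9726 reached a mean of 5 normalized counts over the 20 libraries and were tested, and 1349 were left out. Both groups grew on dishes in the same bicarbonate-buffered medium with serum and were at 5% CO2 throughout. NaOH was used in the study to make the medium alkaline without lowering CO2, beside cells moved to an incubator with 1% CO2. Untreated cells kept for 2 h were not analysed here, and effects of time or handling therefore cannot be told apart from those of NaOH. Cells at 1% CO2 for 2 h (4 libraries) and cells with NaOH for 4 h (4 libraries) were compared directly with NaOH 2 h, without the 0 h libraries. All 20 libraries entered the filter on low counts and the estimate of the spread. All libraries come from 1 cell line, and the study describes the 4 of a group as biological replicates, while the labels do not say how they were grown. The p-values cover the variation among these libraries.

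Cells control their internal pH by moving sodium, protons, bicarbonate and chloride across the membrane, with exchangers of the Slc9 and Slc4 families and the sodium pump. Fibroblasts that receive serum, growth factors, mechanical strain or many kinds of stress transcribe immediate early genes within minutes, among them the AP-1, EGR and NR4A transcription factors, from promoters that are already bound by serum response factor (SRF) and CREB. Many of these mRNAs are short-lived, and products such as the DUSP phosphatases and the SOCS proteins shut off the pathways that induced them.

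Total counts, each of 1 tagged RNA molecule, were 2815294 to 5640523 per library at 0 h and 1325293 to 3923606 at NaOH 2 h, where library 2 was the shallowest. Each of the 20 libraries was nearest to a library of its own group, and the biological coefficient of variation over the 5 groups was 0.101. Of 14 tested fibroblast markers none was called, with a summed level of 138200 to 154000 normalized counts at 0 h and 154900 to 165700 at NaOH 2 h. Of the 54 markers listed for epithelial, immune, endothelial, fat and muscle cells, 7 could be tested and none was called. The highest of these 5 lists was the epithelial one, with Krt14 as its tested member, at a summed 759.8 to 888.3 normalized counts at 0 h and 834.8 to 968.3 at NaOH 2 h.

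After 2 h of NaOH, Nr4a3, Nr4a1, Fosb and Ctgf were among the transcripts that rose most. Txnip and Bmf fell most of the called genes with a mean of at least 50 normalized counts at 0 h and no overlap, followed by Rab3a, a GTPase of secretory vesicles (log2 fold change -2.51), and Clec2d, a C-type lectin (log2 fold change -2.40). In the edgeR test, 650 genes (6.68% of those tested) were higher with NaOH and 518 (5.33%) were lower, with an adjusted p no larger than 0.05 and a log2 fold change (log2FC) that reached 1 in size. Genes past both thresholds are called higher or lower below. The median log2FC of all genes tested was -0.03. The 4 libraries of each group did not overlap for 3808 genes, 39.2% of those tested. The share was 92.8% of the genes called higher and 90.2% of those called lower. Genes named below for the size of their change were chosen among those without overlap, so their separation is part of the choice. Large changes lay on the higher side, since 73 genes were called higher and 9 lower by at least 8-fold, and 17 higher and 0 lower by at least 32-fold. At 0 h the median level was 36.4 normalized counts for the genes called higher and 25.4 for those called lower, both below the 87.0 of all genes tested. In bulk RNA, fewer transcripts per cell and fewer cells with them cannot be told apart. When libraries were scaled by their total count alone, the median of all genes moved to -0.21 and the split turned to 493 genes higher and 790 lower.

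**Figure D1:**
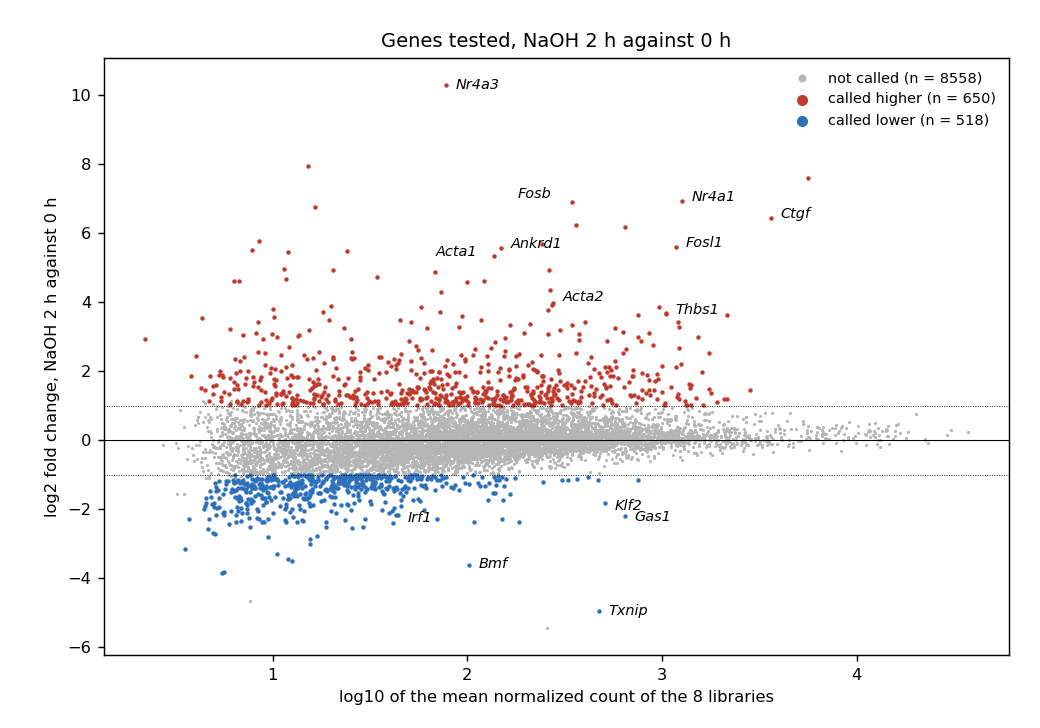
Each point is 1 of the 9726 genes tested, with the log10 of its mean normalized count over the 8 libraries on the x axis and its log2FC on the y axis. The 650 genes called higher are red and the 518 called lower are blue, dotted lines mark a log2FC of 1 in size, and the points far above the rest include Nr4a3, Nr4a1, Fosb and Ctgf, while Txnip and Bmf lie far below.

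The gene with the largest fitted change was Nr4a3 (chr4:48045078-48086447), an orphan nuclear receptor of the immediate early class. No Nr4a3 molecule was counted in any 0 h library, against 151, 143, 153 and 175 normalized counts in the 4 NaOH 2 h libraries. Against a floor of 3 counts over the 4 control libraries together, Nr4a3 was at least 269-fold higher. Ctgf (chr10:24595442-24598683), a matricellular protein that binds integrins and growth factors, rose from 90.3, 71.7, 89.1 and 75.2 to 6681, 7218, 7562 and 7075 normalized counts, with a log2FC of 6.45 ± 0.11 (SE; edgeR adjusted p = 6.4e-33). The lowest library with NaOH lay far above the highest control.

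The AP-1 factors are dimers of FOS, JUN, ATF and MAF proteins that bind to shared elements in target promoters. Of 12 members tested, 8 were called higher and 0 lower, and the median log2FC was 2.26, beside 6.68% called higher and a median of -0.03 over all genes. Fosb (chr7:19302696-19310118) had 7.25, 2.39, 3.34 and 8.0 normalized counts at 0 h and 759, 649, 708 and 630.0 at NaOH 2 h. All 4 libraries with NaOH were far above all controls, and the log2FC was 6.92 ± 0.20 (SE; edgeR adjusted p = 8.7e-25). Maff, a small MAF protein that lacks a transactivation domain, rose from 7.8–10.4 to 576–821 and Fosl1, the FOS family member FRA-1, from 36.8–59 to 2192–2480. Atf3, a stress-induced repressor of the same family, rose from 65.6–73.5 to 633–876 (log2FC 3.43 ± 0.13, edgeR adjusted p = 4.0e-22). Junb rose by a log2FC of 2.76. The summed level of the list was 2226 to 2326 normalized counts at 0 h and 8566 to 9688 at NaOH 2 h.

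Among the EGR, NR4A and IER genes with their partners, 19 of 25 tested members were called higher and none lower, with a median log2FC of 1.51. By adjusted p alone 21 passed as higher and 2 as lower. Those 2 were Egr1 and Zfp36l1, named after their values were seen. Their log2FC were -0.45 ± 0.10 and -0.56 ± 0.14 (edgeR adjusted p = 4.8e-04 and 0.0014). Nr4a1 (chr15:101253902-101274795), an orphan nuclear receptor that is among the first genes induced in stimulated fibroblasts, had 18.9, 18.3, 26.7 and 19.2 normalized counts at 0 h and 2200, 2192, 2868 and 2776 at NaOH 2 h. Library 3 was the highest in both groups, and the log2FC was 6.94 ± 0.28 (SE; edgeR adjusted p = 9.5e-13). Csrnp1, a nuclear protein named for its induction by axin, rose from 6.68–11.2 to 387–600.2. Arc, best known from synapses, where it controls receptor endocytosis, had 10.0, 8.77, 7.8 and 10.4 normalized counts at 0 h and 246, 255, 252 and 182 at NaOH 2 h, so that library 4 with NaOH was the lowest of its group and still far above the controls. Egr3 rose by a log2FC of 4.74 ± 0.29 from a mean of 2.17 ± 0.98 normalized counts (SD, n = 4). Ier3, an early gene that protects from apoptosis, rose from 465–553 to 2698–3172 normalized counts. Srf itself, the factor that drives many of these genes, rose from 119–130.4 to 807–982 (log2FC 2.87 ± 0.10, edgeR adjusted p = 7.8e-23).

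The KLF zinc finger factors moved in both directions. Of 11 tested, 3 were called higher (27.3%) and 2 lower (18.2%), beside 6.68% and 5.33% of all genes tested. Klf5, which promotes proliferation, had 6.69, 6.38, 13.4 and 4.0 normalized counts at 0 h and 124, 88.3, 203 and 140.5 at NaOH 2 h (log2FC 4.29 ± 0.26, edgeR adjusted p = 3.9e-15), while Klf16 and Klf10 rose by log2FC of 1.90 and 1.31. Klf2, which is known for holding cells of the vessel wall and lymphocytes quiescent, fell from 786, 783, 850.0 and 779 to 228, 166, 205 and 287 normalized counts (log2FC -1.82 ± 0.11, edgeR adjusted p = 5.8e-16). Klf11, a TGF-beta-induced factor in other cells, fell from 26.2–35.1 to 3.71–10.4. No library of 1 group entered the range of the other for any of these 5 genes.

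**Figure D2:**
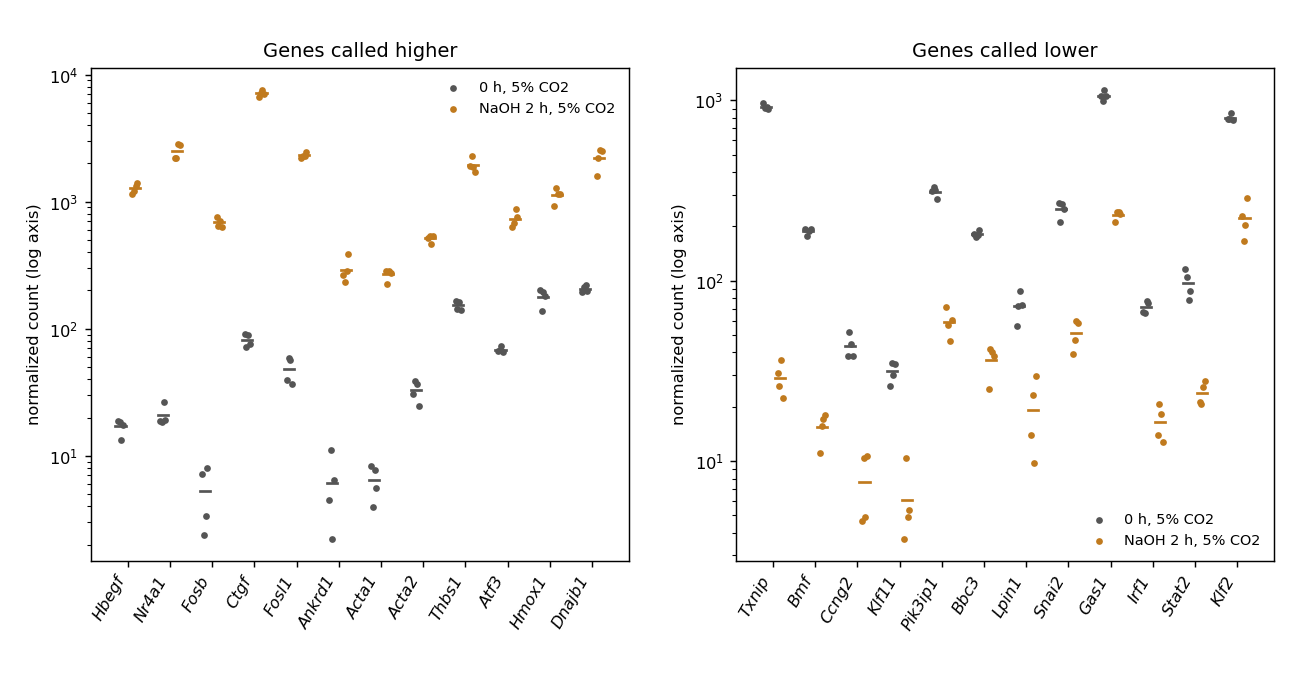
Normalized counts (log axis) of 12 genes called higher, on the left, and 12 called lower, on the right, with 1 point per library and a bar at the mean of the 4 libraries, 0 h in grey and NaOH 2 h in orange. For each of the 24 genes the 4 libraries with NaOH lie apart from the 4 controls, from Ctgf at 6681–7562 to Klf11 at 3.71–10.4. Many of these genes were named by a rule that requires this, and it held for 39.2% of all genes tested.

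Some of the genes that feed back on the ERK pathway rose as well. Of 20 tested members 9 were called higher and 0 lower, with a median log2FC of 0.86. Errfi1, an inhibitor of the EGF receptor, had 35.7, 28.7, 23.4 and 24.8 normalized counts at 0 h and 298, 361, 246 and 300.1 at NaOH 2 h (log2FC 3.35 ± 0.17, edgeR adjusted p = 2.8e-18). Dusp6, a phosphatase specific for ERK, rose from 29–34.4 to 119.8–218, and Dusp10, a phosphatase for p38 and JNK, from 98–112 to 335–451. Dusp4 rose by a log2FC of 3.48. Phlda1, which was placed on the list as a gene that ERK induces, had 153, 139, 173 and 135 normalized counts at 0 h and 1258, 2091, 2220 and 2216 at NaOH 2 h. Library 1 lay well below the other NaOH libraries and above all controls.

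Among secreted growth factors and cytokines, 12 of 23 tested were called higher and none lower, with a median log2FC of 1.54. Hbegf, a membrane-anchored ligand of the EGF receptor, had 18.9, 18.3, 13.4 and 17.6 normalized counts at 0 h and 1143, 1213, 1328 and 1402 at NaOH 2 h. Every library with NaOH was far above every control, and the log2FC was 6.18 ± 0.12 (SE; edgeR adjusted p = 9.9e-32). A second ligand of that receptor, Ereg, had 5.02, 3.19, 3.34 and 4.8 at 0 h and 137, 184, 93.8 and 114 at NaOH 2 h (log2FC 4.87 ± 0.28, edgeR adjusted p = 4.8e-16). Vegfa, the main growth factor of vessels, rose from 379–421 to 1358–1608 normalized counts. The IL-6 family members Il11 and Clcf1 rose by log2FC of 3.71 ± 0.18 and 2.07 ± 0.10 (edgeR adjusted p = 2.8e-19 and 6.6e-19). Tnfrsf12a, the receptor of the cytokine TWEAK, rose from 269.6–355 to 3498–4490.

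Of 20 tested NF-kB targets and chemokines, 7 were called higher (35%) and 2 lower (10%), beside 6.68% and 5.33% of all genes tested. The monocyte chemokine Ccl2 had 37.3, 44.6, 25.6 and 35.2 normalized counts at 0 h and 329, 496, 363 and 341 at NaOH 2 h, its neighbour Ccl7 64.6–105 and 283–459.7. Ptgs2, the inducible cyclooxygenase, rose by a log2FC of 3.42 ± 0.22 and Cxcl1, a neutrophil chemokine, by 3.48 ± 0.24 (edgeR adjusted p = 2.8e-15 and 1.9e-14). Nfkbia, the inhibitor that NF-kB itself induces, rose from 129.9–154 to 260.0–348. The members called lower were the paired inhibitor of apoptosis genes Birc2 and Birc3, both on chromosome 9, with log2FC of -1.56 and -2.01.

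TGF-beta targets rose in part, with 8 of 19 tested called higher, 1 lower and a median log2FC of 0.83. Smad7, the inhibitory SMAD, rose from 63.2–86.9 to 634–705 normalized counts and Pmepa1, another negative regulator of the pathway, from 14.4–23.4 to 184–239. Tgif1, a SMAD corepressor, rose by a log2FC of 1.86. The paralogs Snai1 and Snai2, repressors of epithelial genes, moved in opposite directions. Snai1 had 228, 239.9, 226 and 220.0 normalized counts at 0 h and 2362, 2078, 2147 and 2296 at NaOH 2 h (log2FC 3.28 ± 0.08, edgeR adjusted p = 4.9e-28). Snai2 had 271, 213, 266 and 250.3 at 0 h and 39, 46.8, 59.7 and 58.5 at NaOH 2 h (log2FC -2.29 ± 0.14, edgeR adjusted p = 8.8e-16). Of the ID and BMP genes 4 of 11 were called higher, with Id1, a helix-loop-helix inhibitor of differentiation, at 404–444 and 1338–1624.

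SRF with its actin-regulated coactivators MRTF-A and MRTF-B controls the genes of the actin cytoskeleton. Of 32 tested targets, 17 were called higher and 0 lower, and 29 passed the adjusted p threshold as higher, with a median log2FC of 1.05. The summed level was 54630 to 58750 normalized counts at 0 h and 90550 to 101700 at NaOH 2 h. Actins usually found in muscle showed the largest folds. Acta1, skeletal muscle actin, had 8.36, 3.98, 7.8 and 5.6 normalized counts at 0 h and 282, 226, 285 and 276 at NaOH 2 h (log2FC 5.35 ± 0.17, edgeR adjusted p = 8.0e-25). Acta2, the smooth muscle actin of myofibroblasts, had 30.7, 39, 36.8 and 24.8 at 0 h and 521, 538, 466 and 542 at NaOH 2 h (log2FC 3.99 ± 0.12, edgeR adjusted p = 2.8e-25). Tagln, an actin-binding protein of smooth muscle, rose from 92.5–121 to 932–1125, and Fhl2, a LIM protein that is both target and cofactor of SRF, from 357–382 to 1569–1712. No group overlapped for these genes, and the skeletal muscle marker list had 1 tested member, which was not called.

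SRF binds the CArG box, an AT-rich core between C and G pairs, which is shown here because the actin genes and several early factors are known to share it. The box was searched on both strands from 250 bases before to 50 bases after each start in the RefSeq promoters of GRCm38, which covered 7526 of the genes tested. It was found for 9 of the 28 SRF targets with a promoter (32.1%), against 1.61% of all genes tested with a promoter and 3.92% of those called higher. The SRF targets were listed because they are known targets, so the share describes the list. Of the 9 targets with the box 6 were called higher, and Acta2 and Tagln were not among the 9. The boxes of 7 genes called higher are given in capitals in windows of 30 bases, 5′ to 3′ on the strand of the gene. The boxes lie between 227 bases (Vcl) and 22 bases (Fhl2) before the start.
Acta1 (chr8:123894829-123894858, minus strand): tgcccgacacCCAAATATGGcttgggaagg
Srf (chr17:46556215-46556244, minus strand): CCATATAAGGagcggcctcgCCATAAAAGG
Fhl2 (chr1:43163973-43164002, minus strand): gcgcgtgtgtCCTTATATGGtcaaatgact
Egr2 (chr10:67537484-67537513, plus strand): cggatcttctCCTTTTTTGGaaagtctcgg
Vcl (chr14:20929161-20929190, plus strand): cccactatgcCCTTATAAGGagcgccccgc
Lima1 (chr15:99820177-99820206, minus strand): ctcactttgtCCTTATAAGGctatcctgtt
Actg1 (chr11:120348566-120348595, minus strand): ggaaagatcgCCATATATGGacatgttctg
The Srf window holds 2 boxes and those of Vcl and Lima1 hold the same box. Egr2, Vcl, Lima1 and Actg1 were chosen for their box after their values were seen. Their log2FC were 2.14 ± 0.16 for the early factor Egr2, 1.94 ± 0.11 for vinculin, 2.22 ± 0.09 for the actin cross-linker Lima1 and 1.08 ± 0.13 for gamma actin.

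Of 24 adhesion genes 7 were called higher and 0 lower, with a median log2FC of 0.26. Thbs1, thrombospondin 1, a matrix protein that activates TGF-beta, had 165, 143, 162 and 141 normalized counts at 0 h and 1913, 2280, 1862 and 1716 at NaOH 2 h (log2FC 3.66 ± 0.10, edgeR adjusted p = 8.1e-27). Plaur, the urokinase receptor, rose from 123–136 to 1105–1173, Bcar1, the focal adhesion scaffold p130Cas, from 186–227 to 808–938, and the fibronectin receptor subunit Itga5 by a log2FC of 2.04. Of 33 matrix genes 5 were called higher (15.2%) and 0 lower, beside 6.68% and 5.33% of all genes tested. Tnc, tenascin C, rose from 129–170.4 to 312–405 and Has2, a hyaluronan synthase, from 12.8–14.5 to 21.9–44.2.

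YAP and its DNA-binding partners of the TEAD family drive genes that respond to cell shape and stiffness. Of 24 targets and regulators tested, 11 were called higher and 1 lower, with a median log2FC of 0.69. Ankrd1, an ankyrin-repeat protein of heart muscle and a YAP target in many cells, had 4.46, 11.2, 2.23 and 6.4 normalized counts at 0 h and 264, 231, 285 and 388 at NaOH 2 h (log2FC 5.56 ± 0.22, edgeR adjusted p = 7.0e-21). Cyr61, the matricellular relative of Ctgf, had 346, 313, 358 and 361 at 0 h and 1992, 2387, 3363 and 3161 at NaOH 2 h, with libraries 1 and 2 below libraries 3 and 4. Amotl2, an angiomotin that holds YAP in the cytoplasm, rose from 311–379.9 to 773–1086, and F3, tissue factor, from 712–779 to 1593–1894. The member called lower was Gadd45a, which is also a p53 target. The TEAD element GGAATG, on either strand, was in 66.7% of the 18 YAP-list promoters and in 14% of all promoters of genes tested. For genes called higher the share was 18.4% of 485 promoters, and for those higher by at least 8-fold it was 30.2% of 43. The YAP list was made of known targets and regulators, so its share describes the list. The element is shown in capitals, 5′ to 3′ on the strand of the gene, for 3 members called higher. Of these Ajuba, a LIM protein that inhibits LATS kinases (log2FC 1.62 ± 0.38), was chosen after its values were seen.
Ankrd1 (chr19:36120037-36120066, minus strand): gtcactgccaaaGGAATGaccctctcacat
Amotl2 (chr9:102717727-102717756, plus strand): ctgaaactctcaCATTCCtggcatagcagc
Ajuba (chr14:54577819-54577848, minus strand): aCATTCCacagtgcccctccgcgCATTCCa
In Amotl2 and Ajuba the element lies on the opposite strand and reads CATTCC, and Ajuba has 2 copies.

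Ptger4, a prostaglandin E receptor, rose from 13.6–20.1 to 71.5–105 normalized counts, the sphingosine-1-phosphate receptor S1pr3 from 91.4–129.9 to 358–395, and Rhou, an atypical small GTPase, from 89.2–100.3 to 218–273. Rgs2, which shortens G-protein signals, was low in both groups and fell from 6.69–14.4 to 1.06–5.19. Of 14 Notch and Wnt genes 3 were called higher (21.4%) and 1 lower (7.14%), beside 6.68% and 5.33% of all genes tested. Among them were the Notch ligand Jag1 (log2FC 1.38) and the Wnt receptor Fzd8 (log2FC -2.45, 0–3.19 normalized counts at NaOH 2 h).

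Transporters that move acid and base were not called. Of 19 tested, 0 were higher and 0 lower, with a median log2FC of -0.08, and 4 passed the adjusted p threshold as higher and 1 as lower without reaching a log2FC of 1. Slc4a2, a chloride-bicarbonate exchanger that removes base from cells, had a log2FC of 0.34 ± 0.12 (edgeR adjusted p = 0.021). The sodium pump subunit Atp1b3 had a log2FC of 0.39 ± 0.07 (edgeR adjusted p = 6.1e-05). The cytosolic carbonic anhydrase Car13 had 32.9, 27.1, 30.1 and 26.4 at 0 h and 18.6, 36.4, 11 and 16 at NaOH 2 h, overlapping through library 2 (log2FC -0.68 ± 0.26, edgeR adjusted p = 0.03). The sodium-bicarbonate cotransporter Slc4a7 had only 2.23–5.57 and 5.32–10.4 normalized counts, and its log2FC of 0.99 ± 0.42 did not pass (edgeR adjusted p = 0.053). With 1 library left out (NaOH library 4 or 0 h library 1) 1 member was called higher.

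Among 19 genes of sodium, potassium and volume control, 2 were called higher (10.5%) and 1 lower (5.26%), near the 6.68% and 5.33% of all genes tested. Sgk1, the kinase that serum, glucocorticoids and cell shrinkage induce and that raises sodium transport, had 192, 169.7, 180.5 and 198 normalized counts at 0 h and 917, 1080, 1100 and 1207 at NaOH 2 h (log2FC 2.53 ± 0.10, edgeR adjusted p = 1.2e-21). Kcnn4, a calcium-activated potassium channel, rose from 166–197 to 642–702.

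Txnip, an alpha-arrestin that binds thioredoxin and lowers glucose uptake, fell more than any other called gene. It had 959.7, 904, 921 and 893 normalized counts at 0 h and 30.6, 26, 36.5 and 22.3 at NaOH 2 h (chr3:96557957-96561857). The lowest control lay far above the highest library with NaOH, and the log2FC was -4.97 ± 0.15 (SE; edgeR adjusted p = 2.0e-25), a fall of 31.4-fold. The relatives Arrdc3 and Arrdc2 were also called lower, with 13.9, 15.9, 11.1 and 15.2 at 0 h and 4.64, 5.19, 2.44 and 0 at NaOH 2 h for Arrdc3 and 48.8–51 and 20.4–26.8 for Arrdc2. They make 3 of 7 tested members lower and 0 higher. Of 21 genes of glucose uptake and glycolysis 2 were called higher (9.52%, near the 6.68% of all genes tested) and 0 lower. The list median was -0.04. Slc2a1, the glucose transporter GLUT1, rose from 966–1035 to 2358–2779 (log2FC 1.38 ± 0.07, edgeR adjusted p = 1.8e-18) and Hk2, hexokinase 2, from 34.5–54.2 to 171–217. Hypoxia-inducible factor targets outside glycolysis had 3 of 21 called higher (14.3%) and 0 lower. They were Vegfa, Hmox1 and Plod2, a collagen lysyl hydroxylase at the threshold with a log2FC of 1.01. Its log2FC was 0.991 without NaOH library 2, 0.921 without NaOH library 3 and 0.999 without 0 h library 1, and it was not called in these fits.

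In the cholesterol pathway, which SREBP2 drives, 3 of 20 synthesis genes were called higher (15%) and 0 lower. Of all genes tested 6.68% were called higher and 5.33% lower. The median log2FC of the list was 0.05. Cyp51, the lanosterol demethylase, rose from 118–145 to 276–351, and Sc5d, which acts later in the sterol ring steps, from 123–167 to 259.7–352. Sc5d was no longer called without NaOH library 4 (log2FC 0.929) or 0 h library 3 (0.965), and with scaling by total count alone 1 member was still called and the median of the list was -0.14. Hmgcs1, an early synthase of the pathway, and Sqle, squalene epoxidase, passed by adjusted p alone, with log2FC of 0.49 ± 0.08 and 0.44 ± 0.09 (edgeR adjusted p = 6.3e-06 and 2.1e-04). Fdps had 1278–1508 and 1338–1559, Mvd 213–233 and 193–260.0, and Dhcr7 180.1–200.1 and 179–219 normalized counts at 0 h and NaOH 2 h, overlapping in each case.

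Of 11 genes of SREBP control and sterol uptake, 0 were called. Srebf2 itself and Insig1, the sterol-responsive anchor of the SREBP complex, had log2FC of 0.65 ± 0.10 and 0.61 ± 0.10 (edgeR adjusted p = 2.0e-06 and 5.1e-06), while Insig2 had -0.39 ± 0.11 (edgeR adjusted p = 0.0052). Scap and Srebf1 had log2FC of 0.11 ± 0.09 and -0.14 ± 0.10 (edgeR adjusted p = 0.36 and 0.26). Of 23 fatty acid and lipid handling genes 1 was called higher and 1 lower (4.35% each), beside 6.68% and 5.33% of all genes tested. Fasn, fatty acid synthase, was called higher, from 11.2–18.9 to 30.9–39.9. Lpin1, a phosphatidate phosphatase, was called lower, from 55.7, 72.5, 88 and 73.6 to 13.9, 23.4, 9.74 and 29.8.

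Stress genes moved by class. Of 21 chaperone genes 8 were called higher and 0 lower, 19 passed the adjusted p threshold as higher, and the median log2FC was 0.83. Dnajb1, an HSP40 co-chaperone that heat shock factor induces, had 194, 211, 223 and 199 normalized counts at 0 h and 1592, 2195, 2565 and 2505 at NaOH 2 h, lowest in library 1 (log2FC 3.42 ± 0.13, edgeR adjusted p = 2.1e-18). Hsph1, an HSP110 exchange factor, rose from 432–452 to 1724–2190, the co-chaperone Bag3 from 308–346 to 1138–1390, and Hspd1, the mitochondrial chaperonin HSP60, from 778–912 to 1574–2090. The heat shock element was searched on both strands as GAA, TTC and GAA in this order with a pair of any bases between neighbours. It was in 4 of 15 chaperone promoters (26.7%), 0.611% of all promoters searched and 0.412% of those of genes called higher. Of the 4 chaperone genes with the element 2 were called higher. The promoter of Hspd1 is shown with 2 overlapping copies on opposite strands in capitals.
Hspd1 (chr1:55088053-55088082, minus strand): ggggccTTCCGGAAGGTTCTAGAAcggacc
The stretch lies between Hspd1 and its divergent partner Hspe1, which was not called (log2FC 0.70 ± 0.09) and was named after its values were seen.

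Of 21 NRF2 genes 4 were called higher (19%) and 0 lower, beside 6.68% and 5.33% of all genes tested. Hmox1, heme oxygenase 1, had 201, 137, 196 and 182 normalized counts at 0 h and 923, 1273, 1156 and 1145 at NaOH 2 h (log2FC 2.64 ± 0.15, edgeR adjusted p = 4.3e-13). Txnrd1, thioredoxin reductase, rose from 293–328 to 927–1306 and Osgin1 from 16.7–20.1 to 77.1–129. The integrated stress and unfolded protein responses had 1 of 25 members (4%) called in each direction and a median of 0.03. Of all genes tested 6.68% were called higher and 5.33% lower. The member called higher was Ppp1r15b, the constitutive phosphatase subunit for eIF2 alpha, and the lower one was Trib3, a pseudokinase that CHOP induces, with 559, 630.3, 510.2 and 553 and 220.1, 213, 284 and 347 normalized counts. Trib3 had a log2FC of -1.06 ± 0.12, and of -0.967 without NaOH library 1 and -0.995 without library 2, where it was no longer called.

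The p53 targets and GADD45 genes split, with 8 of 19 called higher and 4 lower. The 3 GADD45 genes, whose products bind stress kinases, did not move together. Gadd45b had 134, 133, 99.2 and 130.4 normalized counts at 0 h and 1734, 1525, 2172 and 1779 at NaOH 2 h (log2FC 3.85 ± 0.11, edgeR adjusted p = 9.6e-26), and Gadd45g rose from 332–371 to 1202–1459. Gadd45a had 649.8, 690.1, 636 and 622 at 0 h and 284, 286, 317 and 287 at NaOH 2 h (log2FC -1.15 ± 0.08, edgeR adjusted p = 5.8e-14). The death receptor Tnfrsf10b rose by a log2FC of 1.98 and the kinase Plk3 by 2.44, while the atypical cyclin Ccng2 and the antioxidant regulator Sesn1 fell, with log2FC of -2.56 and -1.57. Of 13 tested BCL2 family genes 2 were called higher and 2 lower (15.4% each), beside 6.68% and 5.33% of all genes tested. The 2 called lower promote apoptosis and the 2 called higher oppose it. Pmaip1, a listed member that also promotes apoptosis, was left out by the filter and was named after its values were seen. It had 0–3.34 normalized counts at 0 h and 11.7–23.4 at NaOH 2 h. Bmf, a BH3-only protein, had 192, 176, 189 and 194 normalized counts at 0 h and 11.1, 15.6, 17.1 and 18.1 at NaOH 2 h (log2FC -3.61 ± 0.17, edgeR adjusted p = 9.6e-20). Bbc3, the BH3-only protein PUMA, fell from 175–191 to 25.1–41.6. Mcl1 and Bcl2l1, survival proteins, rose from 425–512 to 1132–1486 and from 271–296 to 553–645.

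Genes that FoxO factors induce or that mark growth arrest had 8 of 21 called lower and 3 higher, with a median log2FC of -0.62. Gas1, a membrane protein that is high in arrested NIH3T3 cells and low in growing ones, had 1050, 993, 1140 and 1050 normalized counts at 0 h and 211, 239, 239.9 and 234 at NaOH 2 h. The 4 libraries with NaOH lay close together and far below the controls (log2FC -2.20 ± 0.09, edgeR adjusted p = 2.8e-21). Pik3ip1, an inhibitor of PI3 kinase, fell from 285–332 to 46.3–71.5 and Ypel2 from 184–227 to 53.9–85.1. The members called higher were Irs2, an adaptor of the insulin receptor, Trib1, a pseudokinase adaptor of the ubiquitin ligase COP1, and the repressor Bcl6, with log2FC of 2.31, 2.28 and 1.22.

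Of 35 nucleolar ribosome biogenesis genes 14 were called higher and 0 lower, 31 passed the adjusted p threshold as higher, and the median log2FC was 0.92. Gnl3, nucleostemin, had 95.3, 112, 124 and 92.8 normalized counts at 0 h and 372, 377, 357 and 404 at NaOH 2 h (log2FC 1.85 ± 0.12, edgeR adjusted p = 3.0e-15). Nop58, a core protein of box C/D particles that guide rRNA methylation, rose from 244–280.5 to 734–793 and Ppan from 197–234 to 634–672. None of the 27 cytosolic ribosomal protein genes tested was called, and they had a median log2FC of 0.15, or -0.03 with scaling by total count alone. Myc, which drives ribosome biogenesis, had 199.5, 174, 191 and 196 normalized counts at 0 h and 424, 452, 484 and 466 at NaOH 2 h (log2FC 1.26 ± 0.09, edgeR adjusted p = 2.0e-14). Mnt, a MAX partner that opposes MYC, fell from 143–170.4 to 56.6–85.3. Odc1, the first enzyme of polyamine synthesis and a MYC target, rose from 15.6–31.9 to 113–145. In the polyamine list 2 of 8 genes were called higher (25%) and 0 lower, beside 6.68% and 5.33% of all genes tested.

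Of 19 mitosis genes 8 were called lower and 0 higher, with a median log2FC of -0.90, and 16 passed the adjusted p threshold as lower. Plk1, the kinase of mitotic entry, had 73, 84.5, 63.5 and 49.6 normalized counts at 0 h and 15.8, 18.2, 21.9 and 36.2 at NaOH 2 h (log2FC -1.53 ± 0.21, edgeR adjusted p = 2.5e-07). Aurkb, the kinase of the chromosome passenger complex, had 47.9, 48.6, 33.4 and 43.2 at 0 h and 16.7, 18.2, 18.3 and 25.5 at NaOH 2 h. The list was scarce, with a summed level of 778.7 to 1065 normalized counts at 0 h and 491.2 to 607.7 at NaOH 2 h. The number called lower was 5 without 0 h library 1, 3 with DESeq2 and 3 where only genes with a mean of at least 20 were tested. None of 19 DNA replication genes was called.

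Clock and interferon genes were each split. In the clock list of 16 genes 4 were called higher (25%) and 2 lower (12.5%), beside 6.68% and 5.33% of all genes tested. Nfil3, a repressor of D-box genes, rose from 48–69.1 to 289–364 normalized counts, Cry1 from 51.2–78 to 127–175 and Per2 from 20.1–26.3 to 31.2–75.2, while Per3 fell from 111–130.4 to 39–52.1. Of 11 interferon genes 2 were called higher and 2 lower (18.2% each). Socs1 and Socs3, which inhibit cytokine receptors, rose from 227–271 to 717–817 and from 186–228 to 762–909. Irf1, an interferon-induced activator, and Stat2, the STAT of type I interferon, were called lower. Irf1 had 66.9, 66.1, 76.9 and 75.2 normalized counts at 0 h and 13.9, 20.8, 18.3 and 12.8 at NaOH 2 h, and Stat2 had 116, 105, 78 and 87.2 at 0 h and 21.4, 20.8, 25.6 and 27.7 at NaOH 2 h, without overlap between the groups for either.

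**Figure D3:**
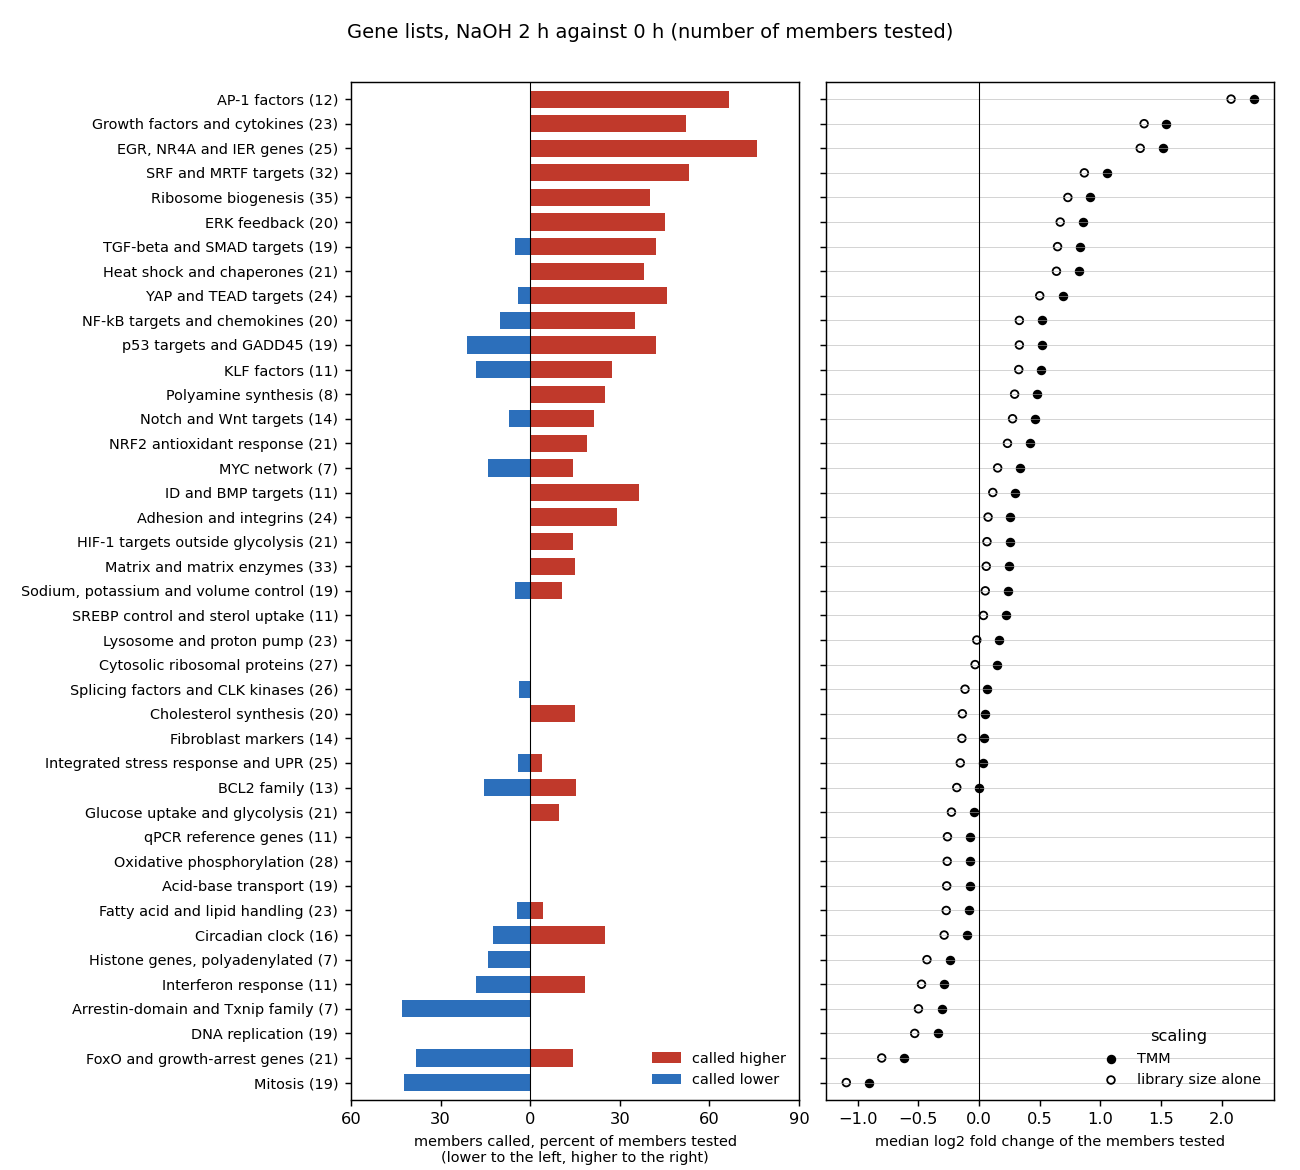
On the left, the percent of the tested members of each list called higher (red, to the right) or lower (blue, to the left) is plotted for the lists reported here with at least 7 tested members, and the number tested stands in brackets. On the right, the median log2FC of each list is given with TMM scaling (filled) and with scaling by total count alone (open), from 2.26 for the AP-1 factors to -0.90 for mitosis. The open points lie to the left of the filled ones.

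Several large groups did not move past the thresholds. None of 28 oxidative phosphorylation genes and 23 lysosome and proton pump genes was called, and their median log2FC were -0.08 and 0.16. Of 11 genes used as references in quantitative PCR 0 were called, and their median log2FC was -0.08. By adjusted p alone 1 passed as higher and 3 as lower. The higher one was Actb, named after its values were seen (log2FC 0.76 ± 0.10, edgeR adjusted p = 6.4e-08). The summed level of these genes was 29500 to 31970 normalized counts at 0 h and 38690 to 45280 at NaOH 2 h. Of 26 splicing factors and CLK kinases 1 was called lower (3.85%), beside 5.33% of all genes tested. With scaling by total count alone the median changed sign for the cholesterol synthesis, ribosomal protein, lysosome, splicing, fibroblast, integrated stress and BCL2 lists, whose medians lay between -0.184 and 0.164 under both scalings.

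Set directly against 1% CO2 at the same time, NaOH 2 h had 366 genes higher and 267 lower, which are 3.76% and 2.75% of the genes tested. Gadd45b had 51.7 ± 1.59 normalized counts at 1% CO2 (SD, n = 4) and 1802 ± 270.1 at NaOH 2 h, a log2 difference of 5.12 ± 0.13 (SE; edgeR adjusted p = 1.2e-27). Fosb stood at 0.81–2.78 at 1% CO2, against 2.39–8.0 at 0 h, and differed from NaOH 2 h by 8.57 ± 0.25 (edgeR adjusted p = 3.0e-24). Atf3 and Nr4a1 were higher with NaOH by 3.42 ± 0.13 and 5.89 ± 0.26 (edgeR adjusted p = 2.8e-21 and 7.6e-12). Gas1 had 806–880.1 at 1% CO2 and was lower with NaOH by a log2 difference of -1.88. Arrdc3 and Lpin1 were lower with NaOH, by log2 differences of -3.30 ± 0.40 and -2.50 ± 0.21 (edgeR adjusted p = 3.0e-08 and 5.1e-12).

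Other changes were not called different between NaOH and 1% CO2 after 2 h. Ereg had 90.9–155 normalized counts at 1% CO2, with a log2 difference of 0.02 ± 0.16 (edgeR adjusted p = 0.95). Sgk1, Ccl2 and Myc had log2 differences of -0.06 ± 0.09, -0.12 ± 0.11 and 0.08 ± 0.09 (edgeR adjusted p = 0.66, 0.45 and 0.48). For the 35 ribosome biogenesis genes the median difference was 0.16 and none was called. Of the 20 cholesterol synthesis genes 4 were called lower with NaOH than at 1% CO2 and 0 higher, with a median log2 difference of -0.61. Hmgcs1 had 2396 ± 106 at 1% CO2 and 1167 ± 90.3 at NaOH 2 h (SD, n = 4), a log2 difference of -1.04 ± 0.08 (edgeR adjusted p = 5.5e-13). Mvd and Msmo1, a sterol methyl oxidase, differed by -1.20 ± 0.13 and -1.24 ± 0.16 (edgeR adjusted p = 2.5e-08 and 4.5e-06).

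Between 2 and 4 h of NaOH 265 genes were called higher and 396 lower, which are 2.72% and 4.07% of the genes tested. Of the 12 AP-1 factors 9 were called lower at 4 h than at 2 h and 0 higher, and of the 25 EGR, NR4A and IER genes 14 lower and 0 higher. Fosb fell from 686 ± 58.4 to 18.6 ± 9.29 normalized counts (SD, n = 4), Nr4a1 from 2509 ± 363 to 71.9 ± 24.8 and Ankrd1 from 292 ± 68 to 9.26 ± 2.98. Atf3 and Junb fell by log2 differences of -4.10 and -2.89 (edgeR adjusted p = 1.7e-22 and 1.4e-23). Actin genes were not called lower at 4 h. Acta1, Acta2 and Tagln had log2 differences between 4 and 2 h of 0.06 ± 0.10, 0.04 ± 0.09 and 0.04 ± 0.08 (edgeR adjusted p = 0.69, 0.81 and 0.75), and 4 of the 32 SRF targets were called lower at 4 h.

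Txnip, Gas1 and Bbc3 were not called different between 2 and 4 h, with log2 differences of 0.17 ± 0.21, -0.12 ± 0.10 and 0.10 ± 0.18 (edgeR adjusted p = 0.58, 0.37 and 0.73). Ccng2 and Mnt rose between 2 and 4 h. Ccng2 rose by 2.49 ± 0.27 to 35.9–43.7 normalized counts, against 38.4–51.8 at 0 h, and Mnt by 1.67 ± 0.12 to 192–226, against 143–170.4 at 0 h (edgeR adjusted p = 2.2e-09 and 1.2e-13). Ccl2 and Ccl7 continued to rise, from 382 ± 77.3 and 353 ± 75.4 to 1020 ± 117 and 815 ± 113 normalized counts, with log2 differences of 1.45 ± 0.11 and 1.23 ± 0.13 (edgeR adjusted p = 2.2e-12 and 3.4e-08).

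**Figure D4:**
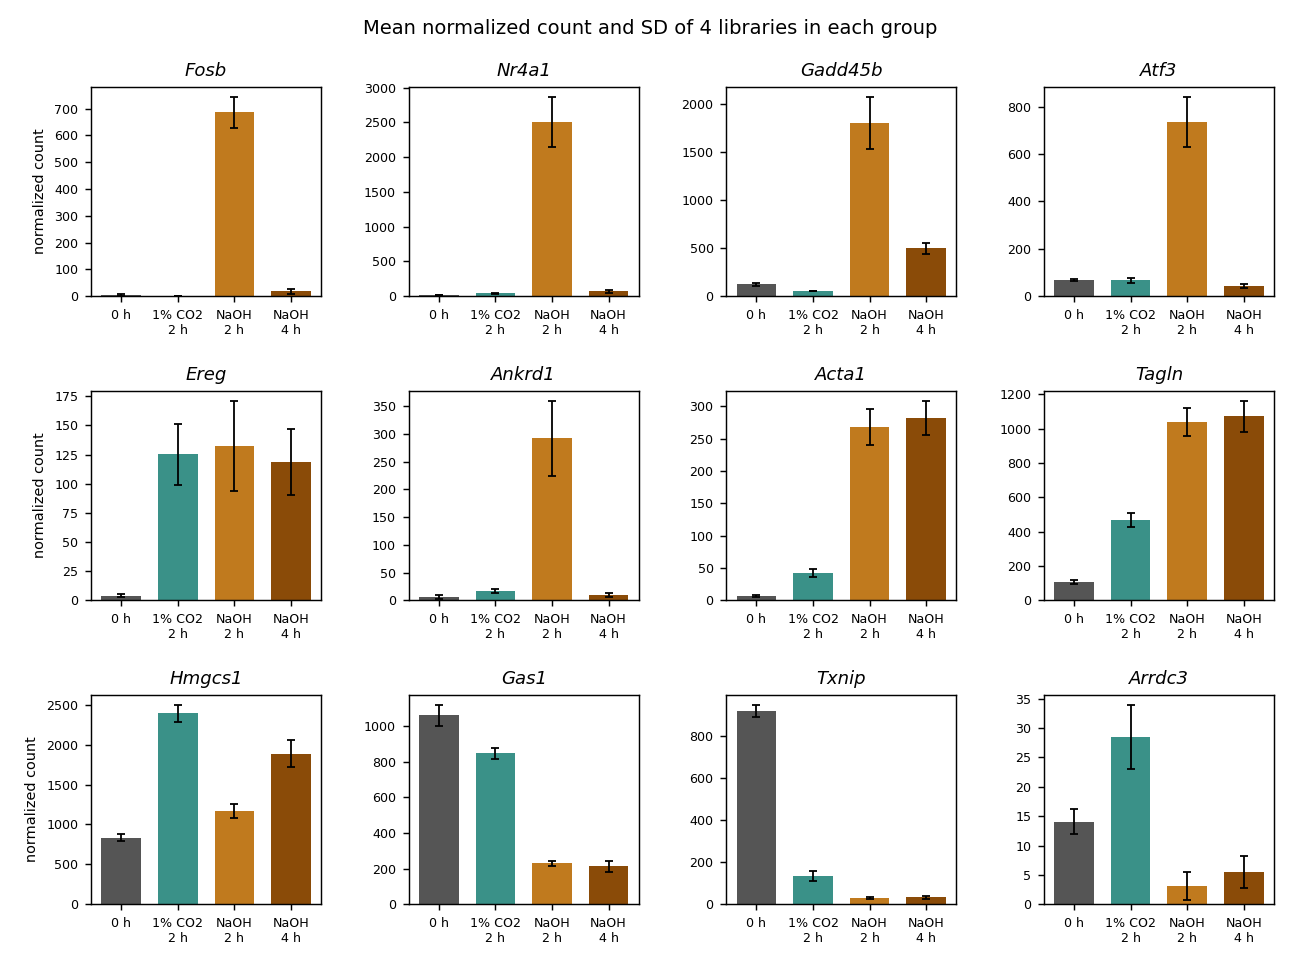
Mean normalized counts of 12 genes (bars, y axes from 0) with the SD of 4 libraries are plotted at 0 h, 1% CO2 2 h, NaOH 2 h and NaOH 4 h. Fosb, Nr4a1, Gadd45b, Atf3 and Ankrd1 stand highest at NaOH 2 h and are lower at 4 h, Acta1 and Tagln stay high at 4 h, Ereg is near the same level in the 3 treated groups, Hmgcs1 is highest at 1% CO2, and Gas1 and Txnip are lowest in the NaOH groups.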

How the data were processed

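In bulk MARS-seq the 3′ ends of mRNA are sequenced with a molecular tag, so that PCR copies count once. The deposited counts were made by the authors with a transcriptome pipeline in which adapters were trimmed with cutadapt, reads were mapped to mm10 with STAR (2.4.2a in the submitters' processing notes) and tagged molecules were counted with HTSeq over RefSeq genes extended at both ends. A normalized signal, which the authors derived with DESeq2, was used only to check that it equals the counts divided by 1 factor per library. The sources used here do not say how the 11075 genes were chosen. Paralogs or overlapping genes with shared 3′ ends may share counts. Total counts ran from 1325293 to 5640523 per library, and scarce genes carry more counting error.

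The counts were tested with edgeR 4.0.16 (R 4.3.3). Libraries were scaled by TMM factors, and a normalized count is a count at the mean effective library size. A robust quasi-likelihood model covered the 20 libraries in 5 groups, the SE of a log2FC is its size over the square root of F, and p-values were adjusted by Benjamini-Hochberg over 9726 genes. The code was tested on simulated data. Alternatives were other scalings, other filters on low counts, a test against a fold of 2, DESeq2 1.42.0, only the 8 libraries compared, the replicate number as a block and each library left out. Lists were described by counts and medians. Named genes are, in each direction, the 15 called genes with the largest log2FC (mean of 50 or more in the higher group, groups apart) and the 10 with the largest difference in mean, up to 5 called members per list with the smallest adjusted p, members called in a list's minority direction, and genes of sterol synthesis, SREBP control and acid-base transport, without predicted or unnamed genes in the first 2 sets. Not all that meet the rule are named, and the text says where a further gene was picked by its values. The comparison, its genes and the lists were chosen with earlier results of these data known. Of the 11075 symbols 11045 matched RefSeq genes, whose GRCm38 coordinates and promoters were used. Figures were drawn in Python 3.11.15. Some genes that meet the rule are not reported here.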

Additional observations from a re-analysis of the deposited data

Results flagged for a closer look

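Single libraries stood apart from the other 3 of their group for 17 of the 302 sets of 4 values examined (5.63%), which were the 2 groups of each called gene that meets the naming rule and is reported here, and the total counts. Chance gives about 5%. The measure, Dixon's ratio, is the gap to the nearest library over the range of the group, and values past its critical value are given. At NaOH 2 h it was 0.841 for Acta1 (library 2 lowest, 226.0 against 275.6 to 285.0 normalized counts), 0.884 for Arc (library 4 lowest, 182.0 against 246.1 to 254.5), 0.902 for Gadd45a (library 3 highest) and 0.865 for Phlda1 (library 1 lowest, 1258 against 2091 to 2220). At 0 h library 3 was highest for Nr4a1 (0.897), Klf2 (0.905), Amotl2 (0.951) and Bhlhe40 (0.876) and lowest for Gadd45b (0.903). Library 1 was highest for Efna4 (0.899), Rrs1 (0.841) and Fzd8 (0.846) and lowest for Gprc5a (0.847). Library 2 was highest for Tns3 (0.869) and Arrdc2 (0.886) and lowest for Kcnn4 (0.871). Library 4 was lowest for Smad7 (0.864). For each of these 17 genes the groups did not overlap, and each was still called when any 1 of the 8 libraries was left out. These were called genes, and the groups did not overlap for 92.8% of all genes called higher and 90.2% of those called lower. Some were named by a rule that requires groups without overlap.

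The levels at NaOH 2 h differed from those in the other treated groups in direct edgeR tests. Against 1% CO2 at 2 h, 366 genes were higher and 267 lower, and at NaOH 4 h 265 were higher and 396 lower than at NaOH 2 h.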

How the results depend on the processing

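Of the 154 called genes that meet the naming rule, none changed direction in any setting run. Each setting is given as genes higher and lower at NaOH 2 h against 0 h, then NaOH against 1% CO2 at 2 h, then NaOH 4 h against 2 h. Only genes with a mean of at least 20 (7894 tested) gave 493 and 223, 237 and 130, and 155 and 239. In the first comparison the main setting gave 650 and 518 of 9726 tested, so many of the genes called lower had a mean below 20. A test against a fold of 2 (glmTreat) gave 350 and 96, 146 and 35, and 31 and 103. DESeq2 gave 561 and 338, 279 and 147, and 168 and 259. Scaling by total count alone gave 493 and 790, 289 and 422, and 264 and 396. No filter gave 771 and 659, 464 and 314, and 296 and 477. Median-of-ratios factors gave 646 and 525 in the first comparison, and a fit to its 8 libraries 657 and 514. Leaving out 1 library gave 628 to 664 higher and 469 to 561 lower, 335 to 374 and 235 to 307, and 243 to 287 and 361 to 400.

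The labels give groups the same replicate numbers, but libraries of 1 number did not deviate together (r of -0.05 to 0.017 between NaOH 2 h and 0 h), so the numbers were not taken as pairs. With the replicate number as a block the counts were 653 and 521, 367 and 255, and 264 and 393, and no named gene was lost. The test against a fold of 2 lost 37 of the named calls, scaling by total count 10 and DESeq2 9, and leaving out 1 library lost 1 to 5. Depth limits the calls of scarce transcripts most. No untreated 2 h library was compared, so time and handling come with NaOH in each comparison with 0 h.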

Other observations

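For 2 tested genes with a large fitted change that were not called, 1 control library carried most of the counts. Both genes, and Foxn1, were chosen after their values were seen. Mir692-1 had 1962, 14.3, 14.5 and 14.4 normalized counts in the 4 libraries at 0 h and 9.29, 13, 9.74 and 16 at NaOH 2 h (edgeR adjusted p = 0.077). Sftpc, which codes for a lung surfactant protein, had 0.56, 0, 57.9 and 0 at 0 h and 0, 2.6, 0 and 0 at NaOH 2 h (edgeR adjusted p = 0.39). Beside Nr4a3, Foxn1 was the tested gene with no count in any control library. It had a mean of 30.3 ± 7.04 normalized counts at NaOH 2 h (SD, n = 4). That is at least 52.4-fold above the floor of 3 counts over the 4 control libraries. Other genes without a control count were left out by the filter on the mean over the 20 libraries. Among these, Cass4 and Cul9, also chosen after their values were seen, had 10.4–13 and 7.79–15.8 normalized counts at NaOH 2 h.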
